A study of Mus musculus with 6 samples.

Results

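Long intergenic noncoding RNA (lincRNA) probes of an Agilent 1-colour array that lie more than 100 kb from any probe for a protein-coding RefSeq transcript were described in the forelimb of the mouse embryo. A probe was counted here when its name gave a lincRNA region and a strand, F for forward and R for reverse, and when its mm9 position lay more than 100 kb from the nearest non-control probe whose accession starts with NM_. The rule took 3142 probes in 801 regions, out of 16181 lincRNA probes in 3540 regions on the array. Another 118 lincRNA probes in 38 regions had no place on an mm9 chromosome with NM_ probes. The rule used positions only, and no signal. The tissue was the forelimb autopod, the future hand, at embryonic day E11.5. The embryos were C57BL/6 and carried EGFP knocked into the Sox9 locus, so both groups came from reporter embryos and no embryo without the reporter was measured. Its mesenchymal cells were separated by a cell sorter according to EGFP. This gave a Sox9-EGFP positive and a Sox9-EGFP negative group of 3 samples each, and about 10 autopods were pooled per sample. The reporter follows the Sox9 locus, so the groups differ in Sox9 activity by construction and the negative cells are a mixture of all other sorted mesenchyme. The title of the series places the study in a digit patterning network of Bmp, Sox9 and Wnt, and the question addressed here is which distal noncoding regions gave different signal in the cells with and without Sox9 reporter activity.

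A lincRNA is a transcript without a long open reading frame that lies between protein-coding genes. Many are spliced and polyadenylated, and some are transcribed from the same large intervals that hold distant enhancers of developmental genes. Sox9, whose protein product directs mesenchymal cells into cartilage, is flanked by gene-poor intervals in which distant enhancers have been described. Labelling started from an oligo-dT primer, so the signal is that of polyadenylated RNA, and the name F or R gives the strand of the transcript that a probe detects. In bulk samples such as these, fewer cells that make a transcript and less of it per cell cannot be told apart.

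The probes are 60 bases long. The sequences below are those of the regions on which the results turn, written 5′ to 3′ as deposited, with mm9 coordinates. Capitals mark AATAAA and ATTAAA, the hexamers of polyadenylation signals, searched on the probe strand only. The first 4 lines are R probes of the interval between Sox9 and Slc39a11, and the fifth line is the F probe of that interval that covers 59 bases of the same place as the R probe above it.
A_30_P01018956, R, chr11:112899172-112899231: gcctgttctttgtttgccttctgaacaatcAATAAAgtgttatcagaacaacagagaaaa
A_30_P01018328, R, chr11:112905529-112905588: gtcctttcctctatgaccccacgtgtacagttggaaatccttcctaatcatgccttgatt
A_30_P01018710, R, chr11:112917303-112917362: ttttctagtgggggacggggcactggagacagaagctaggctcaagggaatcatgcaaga
A_30_P01022817, R, chr11:112917478-112917537: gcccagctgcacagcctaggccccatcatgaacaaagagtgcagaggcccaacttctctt
A_30_P01025860, F, chr11:112917477-112917536: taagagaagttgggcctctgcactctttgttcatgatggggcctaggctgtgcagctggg
The next 3 lines are probes that were higher in positive cells in other intervals, and the last 3 are probes that were lower.
A_30_P01029325, R, chr13:28537224-28537283: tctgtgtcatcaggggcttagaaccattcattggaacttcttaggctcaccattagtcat
A_30_P01018977, F, chr16:77691555-77691614: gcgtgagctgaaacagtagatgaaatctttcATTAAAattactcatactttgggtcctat
A_30_P01033149, F, chr9:68357984-68358043: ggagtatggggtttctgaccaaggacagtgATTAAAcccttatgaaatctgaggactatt
A_30_P01022538, F, chr3:37891481-37891540: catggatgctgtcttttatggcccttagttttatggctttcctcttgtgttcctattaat
A_30_P01026578, F, chr8:110390024-110390083: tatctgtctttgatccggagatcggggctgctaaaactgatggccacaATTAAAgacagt
A_30_P01023606, R, chr4:146531578-146531637: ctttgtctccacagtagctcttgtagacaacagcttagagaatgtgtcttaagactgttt
Either hexamer stood in 6.17% of the 3142 distal lincRNA probes, against 13.7% of all probes of the array and 17.3% of NM_ probes. Among the distal probes bright enough to be tested the share was 5.29%, and among those that were not it was 6.44%. The median GC content was 45.0% in the distal probes and 43.3% in all probes, and 15 of the distal probes had a sequence that another probe of the array carries too.

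The distance of a distal probe from the nearest NM_ probe had a median of 173 kb and reached 2097 kb. Their regions had a median length of 13.6 kb. Probes lay on a single strand in 603 regions and on both in 198, with up to 10 probes per region and strand, so the probes of a region share a target and are not replicates of each other. Overlapping regions of 1 strand were joined, which gave 792 loci. The distance is to a probe and not to a gene, and the positions of gene bodies in mm9 were not used here. Other probes of the array, outside the lincRNA set, lay within 10 kb of 829 distal probes (26.4%), and 2895 distal probes were also more than 100 kb from any probe with a noncoding RefSeq accession (NR_). RefSeq promoter windows of the GRCm38 build, 250 bases before to 50 after a gene's start, held the whole sequence of 40 distal probes on either strand, at 21 genes. Some of these genes code for proteins, such as Pappa2, Osbpl3, Aak1 and Lsamp, whose NM_ probes lay more than 100 kb away. The set is therefore distal to NM_ probes, but not everywhere an interval without genes.

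Distal lincRNA probes gave little signal. Of the 3142, 1760 were well above background on no array, 664 on some arrays but not on all 3 of a group, and 718 (22.9%) on all 3 arrays of at least 1 group, the condition for being tested. These 718 probes fell in 344 regions and 315 loci, 334 on the F strand and 384 on the R strand. The tested share was 27.9% for lincRNA probes at 10 to 100 kb, 37.5% for those under 10 kb, 47.5% for all probes of the array and 63.2% for NM_ probes. Levels are given as log2 signal relative to the 75th percentile of the array's own non-control spots, and differences as positive minus negative on that log2 scale. The median level of the tested distal probes was -2.37, against -0.01 for all tested probes. Of the 718, 470 were above background on all 6 arrays, 24 passed through the positive group alone and 224 through the negative group alone. For 190 of those 224 the only array that failed was positive replicate 1. No distal probe was saturated.

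That array was the dimmest of the set, with a 75th percentile signal of 126 against 385 to 478 on the others, and 24743 spots above background against 29800 to 35277. Over the tested distal probes, correlations between arrays were 0.899 to 0.970 among positive samples, 0.962 to 0.974 among negative samples and 0.878 to 0.946 across the groups. The targeted gene followed the labels: the Sox9 probe stood at 3.52, 2.99 and 3.60 in the positive samples and at -0.88, -1.0 and -1.13 in the negative ones, a difference of 4.37 ± 0.20 (SE, n = 3 per group, limma adjusted p = 0.000513), or 20.7-fold. Of 8 tested genes of cartilage condensation 7 were higher in positive cells, and of 9 limb mesenchyme genes 2 were higher and 5 lower. Of the 3 tested red blood cell genes none was called, and negative replicate 2 was the array with the highest level of each of them (Hba-a1 at 2.67, against -0.85 and -0.41 in the other negative samples). Of the other tested markers, 1 of 3 for muscle precursors was lower, 1 of 4 for ectoderm and 1 of 2 for Schwann and neural crest cells were higher, and none of 2 for endothelium and 1 for macrophages was called. The summed level of a list was -0.94 to 0.77 in positive and 0.17 to 4.04 in negative samples for red blood cells, of which 4 of 7 genes were not tested. It was 4.45 to 5.18 and 3.18 to 3.51 for ectoderm, where Krt5, Krt8 and Cdh1 were not tested, and -3.67 to -2.79 and -1.61 to -0.65 for muscle precursors, where Pax7, Lbx1 and Myf5 were not. The part of these other cells and of the dim array in the differences below was not tested, and values without that array are given where it moves a result.

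Signal differed between the groups for 118 of the 718 tested distal probes, in 76 regions and 62 loci (limma, Benjamini-Hochberg adjusted p under 0.05 over all 26473 tested probes). This was 16.4%, against 21.6% of all tested probes. Higher signal in positive cells was called for 84 probes (11.7%, against 7.96% of all tested probes) and lower signal for 34 (4.74%, against 13.7%). A change of 2-fold or more was called for 57 higher and 12 lower probes, where the background was 4.47% and 4.35% of all tested probes. The calls were higher only in 42 loci, lower only in 19, and went both ways in 1. Among the 470 distal probes above background on all 6 arrays, 67 were called higher and 23 lower (19.1%, against 22.7% of all such probes). Of the 118 called probes, 28 were not above background on all 6 arrays, so they entered the test through 1 group only. Of these 28, 7 were above background on no array of the group with the lower signal. Those 7 entered the test through the group in which they are bright, so their p-values set signal against values below background and give no support of their own. A lower bound of the fold is what the arrays measured for them. The 2 groups did not overlap for 230 distal probes (32.0%, against 43.2% of all tested probes). Fitting slide as a block gave 104 higher and 50 lower calls (background 9.72% and 15.2%).

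Higher calls made up 71.2% of the called distal probes and 36.8% of all called probes. That split moves with the scaling: it was 88.1% and 68.0% when the 75th percentile was taken over probes above background on all arrays, which moved the median of all probes from -0.10 to 0.17, and 59.8% and 44.4% after quantile normalization. The median difference of the tested distal probes was 0.24, against -0.10 over all tested probes, and it was 0.28, 0.15 and 0.14 on the 3 slides, which paired a positive with a negative array. The gap between these medians was 0.33, and it was 0.12 after quantile normalization (0.065 against -0.058) and 0.078 with the authors' values (0.042 against -0.037). Without positive replicate 1 the median was 0.07, against -0.12 for all tested probes. There were then 106 higher and 42 lower calls (20.6%, against 24.4% of all tested probes). The median was 0.19 for lincRNA probes at 10 to 100 kb, of which 188 were called higher and 141 lower (12.4% of 2648), and 0.10 for those under 10 kb, with 105 higher and 62 lower calls (13.03% of 1282).

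**Figure D1:**
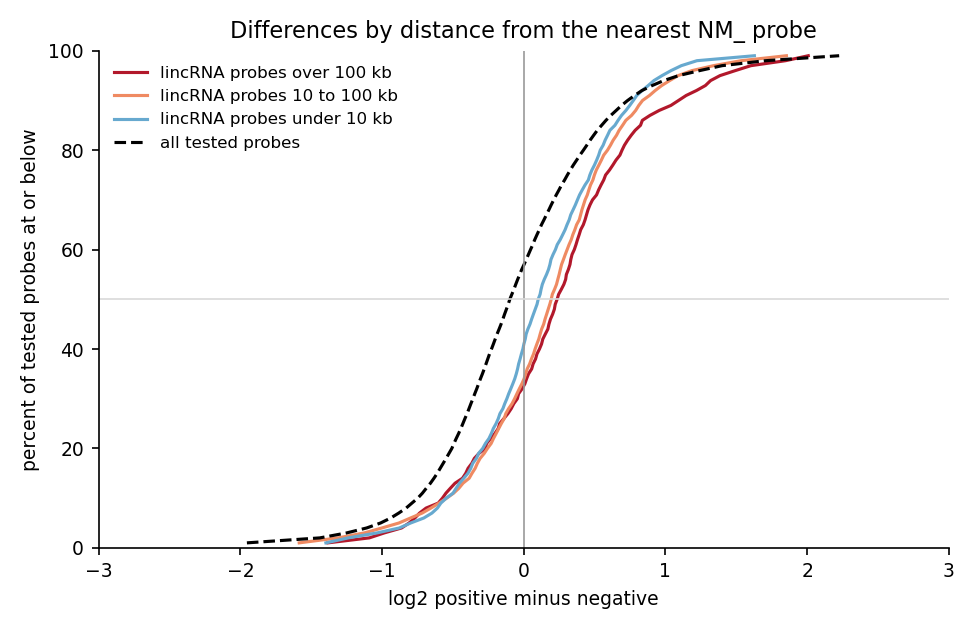
Percent of tested probes (y axis) at or below each log2 difference, positive minus negative (x axis), for lincRNA probes at 3 distances from the nearest NM_ probe (coloured lines) and for all tested probes (dashed). The curve of the probes over 100 kb crosses 50% at 0.24 and that of all tested probes at -0.10.

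Within the distal set calls were made in each range of distance. Between 100 and 150 kb, 29 probes were higher and 16 lower of 325 tested (13.8%). Between 150 and 300 kb 34 were higher and 7 lower of 249 (16.5%). From 300 to 500 kb the counts were 15 higher and 11 lower of 117 (22.2%). Beyond 500 kb they were 6 higher and none lower of 27 (22.2%). Of all tested probes 21.6% were called. The tested distal probes were put in 3 classes of brightness, with 239, 239 and 240 probes. The dimmest class had 18 higher and 8 lower calls, the middle class 32 and 3, and the brightest class 34 and 23. Calls of all tested probes in the same ranges of level are not given here, so these counts show nothing particular to the distal probes. The median differences of these classes were 0.22, 0.34 and 0.13, and those of all tested probes in the same ranges of level were 0.11, 0.21 and -0.21. Just inside the distance limit, at 100.6 and 100.7 kb, the 2 nearest tested probes differed by 0.34 ± 0.31 and 0.08 ± 0.39. Just outside it, at 99.95 and 99.73 kb, they differed by 1.36 ± 0.57 and 1.37 ± 0.33. Probes of a locus moved together: the standard deviation of the difference within a locus had a median of 0.20 over 149 loci with 2 or more tested probes, against 0.70 over all 718 probes. The 13 loci with 3 or more called probes held 60 of the 118 calls, so the count of probes is larger than the count of separate transcripts.

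The longest run of higher probes lay beside Sox9. Region chr11:112898724-113062945 and a shorter region within it carry 11 R probes between Sox9 and Slc39a11, at 250.3 to 268.6 kb from the Sox9 probe, in an interval of 457 kb between the NM_ probes of the genes. All 11 passed the filter, 9 were called higher, and the differences ran from 0.74 to 2.53 with a median of 1.36. The probe with the largest difference, A_30_P01018956, stood at -1.16, -1.06 and -0.66 in the positive samples and at -3.65, -3.26 and -3.55 in the negative ones. The groups were far apart, with no negative sample within 2 units of a positive one. The difference was 2.53 ± 0.19 (SE, n = 3 per group, limma adjusted p = 0.001), or 5.78-fold. Its close neighbours A_30_P01030983 and A_30_P01032673 differed by 2.49 ± 0.16 and 2.04 ± 0.25. A_30_P01030983 was above background on 1 negative array only and entered the test through the positive group, so the size of its difference is uncertain. Further from Sox9, A_30_P01018328 stood at 1.26, 1.59 and 1.77 against -0.03, 0.16 and 0.14, a difference of 1.45 ± 0.17 (limma adjusted p = 0.004). At the far end, A_30_P01018710 stood at 0.91, 0.98 and 1.04 against -0.50, -0.24 and -0.42, a difference of 1.36 ± 0.13 (limma adjusted p = 0.002). In each of these probes every positive sample was above every negative sample.

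The 2 R probes that missed the threshold, A_30_P01020019 and A_30_P01024034, differed by 1.25 ± 0.40 and 0.74 ± 0.30 (limma adjusted p = 0.071 and 0.133). All 11 R probes were called once slide was fitted as a block (limma adjusted p from 0.005 to 0.036), and every R probe was higher in the positive array on each of the 3 slides, by 0.46 to 2.99. From 8 to 9 R probes were called when any single array was left out, 8 with the replicate number as a block and 7 with no filter on background. A noncoding RNA of unknown function on the same strand, 2610035D17Rik, has a probe at chr11:112905507-112905566 that differed by 1.49 ± 0.16 (limma adjusted p = 0.003), and that shares 38 bases with A_30_P01018328. It has another at chr11:113061780-113061839 that differed by 1.48 ± 0.17 (limma adjusted p = 0.004). An unnamed probe between them at chr11:112936192-112936251 differed by 0.68 ± 0.18 (limma adjusted p = 0.042). Slc39a11, a zinc transporter gene on the far side, differed by -0.47 ± 0.14 and did not pass (limma adjusted p = 0.060).

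Of the 8 F probes of the same interval, 4 were above background on no array and 1 could be tested. That probe, A_30_P01025860, stood at -0.53, -3.10 and -2.34 in the positive samples and -2.79, -2.07 and -3.32 in the negative ones, and the groups overlapped. Its difference was 0.74 ± 0.69 (limma adjusted p = 0.49), while the R probe A_30_P01022817 that covers the same bases on the other strand stood at -1.49, -1.37 and -1.25 against -2.55, -2.30 and -2.54, a difference of 1.09 ± 0.14 (limma adjusted p = 0.006). The strands did not pass the direct test of their difference given further on.

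**Figure D2:**
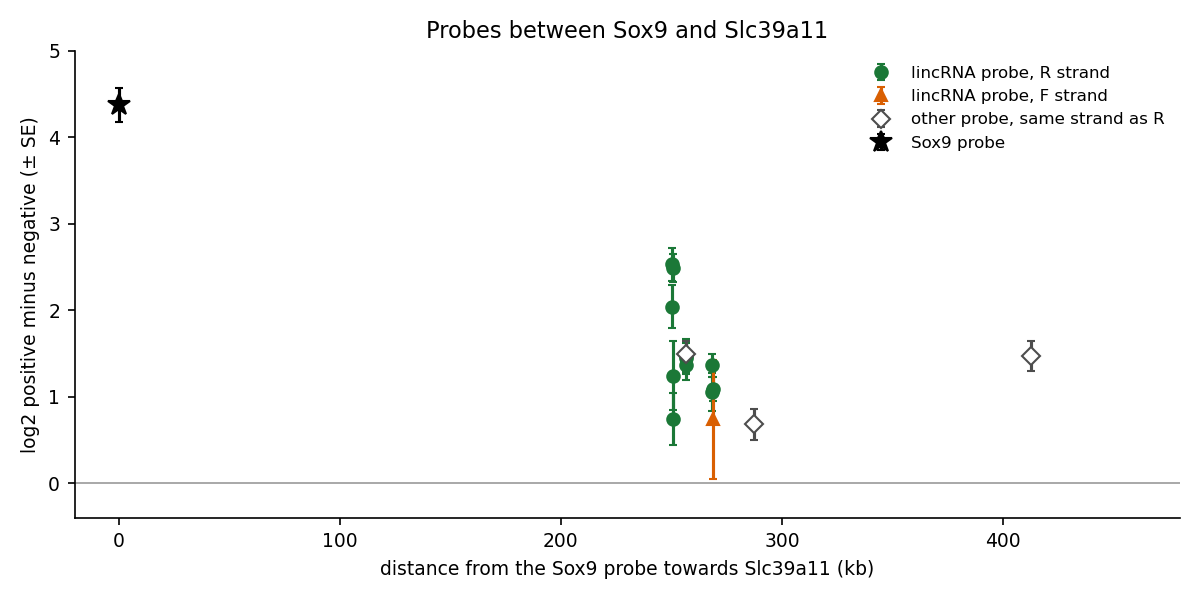
Log2 difference, positive minus negative, with its standard error (y axis) against the distance from the Sox9 probe towards Slc39a11 in kb (x axis), for R and F lincRNA probes, for other probes on the R strand and for Sox9. The R probes sit between 0.74 and 2.53, all above 0 and below Sox9 at 4.37.

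A second long run lay in the interval between Prl5a1, a prolactin family gene, and Sox4, which encodes a transcription factor of the family of Sox9. Locus chr13:28477490-28985604 joins 9 R regions with 27 probes, of which 9 were tested and 6 called higher. The called probes lay 282 to 506 kb from the Sox4 probe and differed by 1.15 to 1.90. The largest, A_30_P01029325, stood at -1.96, -1.66 and -1.10 against -3.10, -3.53 and -3.79, with no overlap and a difference of 1.90 ± 0.28 (limma adjusted p = 0.008). A tight group of probes further along the chromosome, A_30_P01018833, A_30_P01019384 and A_30_P01020189, differed by 1.55, 1.71 and 1.86. The 3 probes that were not called, which included the brightest of the locus, differed by -0.04, 0.13 and 0.69. Other R-strand probes inside the locus, a transcript cluster named TC1646732, whose probe covers the same 60 bases as a lincRNA probe, and an unnamed probe, differed by 1.41 ± 0.28 and 1.81 ± 0.38 (limma adjusted p = 0.018 and 0.022). Sox4 itself was higher in positive cells by 1.12 ± 0.13 (limma adjusted p = 0.004). From 4 to 6 probes were called when any single array was left out, 3 with the replicate number as a block, 5 with slide as a block and 4 after quantile normalization. The falls to 4 came without positive replicate 2 or 3 and without negative replicate 1 or 3.

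Between Lhfpl3 and Kmt2e, a chromatin regulator gene, locus chr5:22801058-22939737 had 7 tested R probes, of which 6 were called higher. The called probes differed by 1.27 to 1.51 and the other by 1.21 ± 0.34 (limma adjusted p = 0.050). All but 1 of the probes lie close together and some overlap. The probe A_30_P01028374 stood at -0.24, 0.02 and 0.26 against -1.14, -1.48 and -1.60, a difference of 1.42 ± 0.19 (limma adjusted p = 0.007). Probes of the noncoding RNA 5031425E22Rik on the same strand of this locus differed by less, 0.48 ± 0.18 and 0.47 ± 0.35, and were not called. Kmt2e differed by 0.57 ± 0.13 (limma adjusted p = 0.029). The run was less steady than that beside Sox9: 1 of its probes was called without negative replicate 3, 2 without positive replicate 3, 4 without negative replicate 2, 1 with no filter on background and none with the replicate number as a block.

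Some of the loci lay in imprinted domains, where the parental allele decides expression. Between Rtl1 and Dio3, in the domain that holds a large cluster of microRNAs and small nucleolar RNAs, locus chr12:110944403-110988678 had 7 tested F probes and 4 called higher. These differed by 1.52 to 1.83. The probe A_30_P01023076 stood at -0.51, 0.28 and -0.00 against -1.31, -2.01 and -2.40, a difference of 1.83 ± 0.33 (limma adjusted p = 0.015). The noncoding host transcript Mirg, probed at chr12:110987569-110987628 on the same strand, differed by 1.49 ± 0.20 (limma adjusted p = 0.006). Of the other probes on that strand, EU616813 at chr12:110968992-110969051 differed by 0.15 ± 0.17 and was not called, and an unnamed one at chr12:110979653-110979712 by 1.80 ± 0.19 (limma adjusted p = 0.003). A further F probe of this locus, A_30_P01029937, holds 41 bases of the RefSeq hairpin of Mir410, and was not bright enough to be tested. The 4 calls fell to 2 without negative replicate 2 or 3, and to 1 without positive replicate 3 or with the replicate number as a block. All 4 were lost with no filter on background. Between Snrpn and Ndn, genes of the domain whose human counterpart is lost in Prader-Willi syndrome, locus chr7:69008096-69131056 had 5 tested R probes and 4 called higher. A_30_P01017899 stood at -1.51, -2.17 and -1.46 against -4.09, -3.45 and -3.51, a difference of 1.97 ± 0.27 (limma adjusted p = 0.007). A_30_P01027864 was above background on no negative array and was at least 3.68-fold higher in positive cells. That bound sets each dim array at its own lowest level above background, or at the probe's value where that is higher. Ndn and Snrpn themselves differed by 0.27 ± 0.34 and -0.37 ± 0.25 and were not called. The calls of this locus fell to 2 without negative replicate 3, without positive replicate 3 and with the replicate number as a block, and to 3 with slide as a block.

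On the X chromosome, locus chrX:47893703-47996700 between Olfr1324 and Stk26 had 4 tested R probes, all called higher, by 0.91 to 1.02. A_30_P01028826 stood at -0.21, -0.02 and 0.05 against -0.99, -1.24 and -1.01. The groups were close within themselves and apart from each other, and the difference was 1.02 ± 0.14 (limma adjusted p = 0.007). These 4 probes stayed called without any single array, with the slide block and after each of the other normalizations, but not with the replicate number as a block or without a filter. The locus holds Firre, a nuclear noncoding RNA, of which 6720401G13Rik on this array is an older name in RefSeq. Probes under the older name differed by 1.07 ± 0.13 (limma adjusted p = 0.005) and 0.83 ± 0.31 (limma adjusted p = 0.103), and the probe named Firre was not bright enough to be tested.

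Smaller runs of higher probes completed this group. All 4 tested F probes of locus chr10:81816994-81863610 beside Zfp938 were called, with differences of 0.65 to 0.81, and A_30_P01032668 among them lies in the RefSeq promoter window of the predicted gene Gm4924 in the same orientation. All 4 calls were lost when any single array other than positive replicate 1 was left out. Calls fell to 3 with slide as a block and to 1 after quantile normalization. None was left with the replicate number as a block or with no filter on background. All 3 R probes of chr13:108653722-108654406, beside Zswim6, were called, at 1.25 to 1.32, but none was without negative replicate 1 or 2 or positive replicate 3, and 1 was without negative replicate 3. There were 2 calls with the replicate number as a block, 1 after quantile normalization and none with no filter on background. Calls were also made at all 3 tested F probes of chr8:105742425-105864030, between the cadherin genes Cdh11 and Cdh5, at 0.82 to 1.34. Only 1 of the 3 was above background on all 6 arrays, and the others entered the test through 1 group. None of the 3 was called without any 1 of the negative arrays, without positive replicate 2 or with no filter on background. None was called after quantile normalization or with the authors' log2 values. With slide as a block 2 were called, and 1 was with the replicate number as a block. Cdh11, a cadherin of mesenchyme, differed by -0.31 ± 0.31 and was not called.

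Among single probes, the largest higher differences outside these runs were in 4 regions. In chr16:77670599-77691642, between Usp25 and Cxadr, the F probe A_30_P01018977 stood at -2.46, -2.83 and -2.85 against -4.86, -4.97 and -5.45, was above background on no negative array, and was at least 3.71-fold higher (limma adjusted p = 0.002). The other tested probe there, A_30_P01024768, was measured in both groups and differed by 1.49 ± 0.16 (limma adjusted p = 0.003). In chr9:68349343-68411643, 515 kb from the nearest NM_ probe, that of Vps13c, the F probe A_30_P01033149 stood at 0.54, 0.20 and 0.42 against -1.52, -2.08 and -1.86, a difference of 2.20 ± 0.19 (limma adjusted p = 0.002). Its region's other 2 tested probes, further along, differed by -0.39 and -0.52 and were not called, so the probes of this region did not move together. In chr16:3111550-3130500, near the start of the chromosome, A_30_P01026338 differed by 1.91 ± 0.22 (limma adjusted p = 0.004). In chr4:88604248-88645948, beside the interferon gene Ifne, the R probe A_30_P01033185 stood at -2.18, -3.90 and -2.38 against -4.82, -4.35 and -5.31. It was above background on no negative array and was at least 3.23-fold higher (limma adjusted p = 0.037), a call that was lost under 10 of 18 alternatives.

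**Figure D3:**
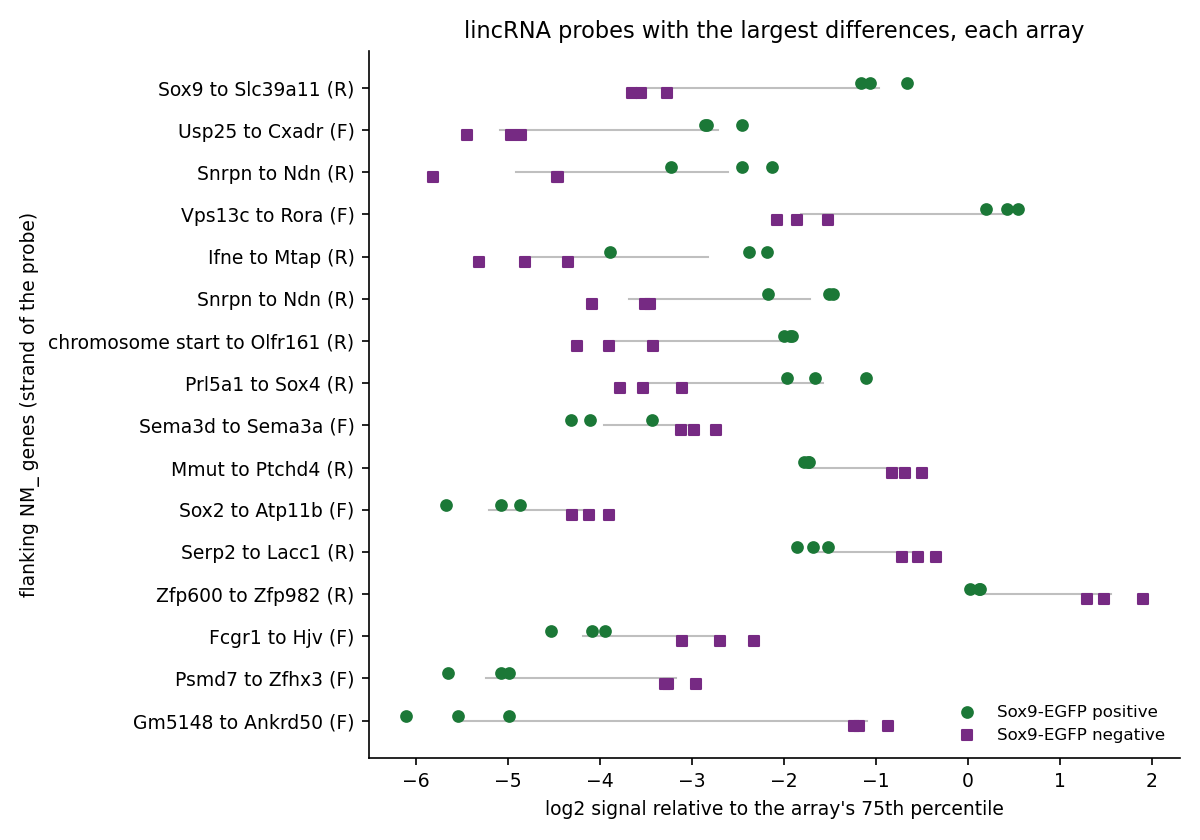
Log2 signal relative to each array's 75th percentile (x axis) for the 8 largest differences in each direction (y axis, named by flanking genes and strand), with a point for each of the 3 positive (circles) and 3 negative (squares) samples and a line between group means. In every row the groups do not overlap, which was a condition of the choice.

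Lower signal in positive cells was called at fewer distal probes, and the largest bound of a fold was among them. Region chr3:37797734-37891650, between Gm5148 and Ankrd50, had 2 tested F probes, both lower in positive cells. A_30_P01022538 stood at -4.99, -5.54 and -6.11 in the positive samples, where it was above background on no array, and at -1.18, -1.24 and -0.87 in the negative ones. It was at least 7.83-fold lower in positive cells (limma adjusted p = 0.001), and its neighbour A_30_P01031142, above background on no positive array either, was at least 5.37-fold lower (limma adjusted p = 0.005). Gm5148 differed by -0.69 ± 0.14 (limma adjusted p = 0.022), and Ankrd50 differed by -0.37 ± 0.12 and was not called. In chr8:110196655-110390197, between the proteasome gene Psmd7 and Zfhx3, A_30_P01026578 stood at -5.08, -4.98 and -5.65 against -2.96, -3.26 and -3.29. It was above background on no positive array and was at least 1.86-fold lower (limma adjusted p = 0.003). Psmd7 differed by -0.77 ± 0.13 (limma adjusted p = 0.012).

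Locus chr4:146507925-146532650 lies between the zinc finger genes Zfp600 and Zfp982, in a cluster of closely related genes, so its probes may read near-identical copies. Of its 5 R probes 4 were called lower, at -1.33 to -1.47. A_30_P01023606 stood at 0.12, 0.14 and 0.03 against 1.48, 1.30 and 1.91, a difference of -1.47 ± 0.18 (limma adjusted p = 0.005). At least 4 of the 5 were called without any single array and after each other normalization, but 1 with the replicate number as a block and 1 with no filter on background. In chr3:21964899-21974524, between Agtr1b and Tbl1xr1, 4 of 6 R probes were called lower, at -0.67 to -0.79. A probe named for the transcript 2810416G20Rik covers the same 60 bases as A_30_P01022266, a called probe of this locus, and differed by -0.67 ± 0.13 where that one differed by -0.71 ± 0.13. Tbl1xr1, a corepressor subunit, differed by -0.61 ± 0.16 (limma adjusted p = 0.045). The calls fell to 2 without negative replicate 2 and to 1 without positive replicate 3. No probe of this locus was called without negative replicate 1 or negative replicate 3, or when the 75th percentile was taken over the probes above background on all arrays. The same held with the replicate number as a block and with no filter on background.

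A single locus went both ways. In chr14:77006215-77063293, between Serp2 and Lacc1, 5 R probes within about 1 kb were lower in positive cells, by -0.77 to -1.15, and a sixth called probe further along was higher. A_30_P01021251 stood at 4.62, 4.61 and 4.54 against 5.57, 5.48 and 5.67, a difference of -0.98 ± 0.12 (limma adjusted p = 0.005). The higher probe, A_30_P01022671, stood at 2.18, 1.55 and 1.23 against 0.68, 0.74 and 0.04, a difference of 1.17 ± 0.31 (limma adjusted p = 0.043). With any single array left out 3 to 5 probes were called lower, with 3 when negative replicate 1 or 3 was out, and 1 was with the replicate number as a block. No probe of the locus was called with no filter on background. The call of the higher probe was lost without any 1 of the 6 arrays.

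Around Mir17hg, the host gene of a cluster of growth-promoting microRNAs, the probes of both strands were measured. On the R strand, in chr14:115423660-115463160, 3 of 6 tested probes were called lower, at -0.82 to -0.98. The called probe at -0.82, A_30_P01026191, was above background on only 2 positive arrays and entered the test through the negative group. A_30_P01028224 stood at 1.59, 1.59 and 1.18 against 2.43, 2.52 and 2.36, a difference of -0.98 ± 0.16 (limma adjusted p = 0.011). Another of the 6, A_30_P01022077, is complementary over 30 bases to the RefSeq hairpin of Mir18, and differed by -1.11 ± 0.39 without passing (limma adjusted p = 0.093). The 3 R calls fell to 1 without negative replicate 1 or 3 or positive replicate 2, and to 2 without negative replicate 2 or positive replicate 3. All 3 were lost with the replicate number as a block and with no filter on background. On the F strand, which is that of the host transcript Mir17hg, 12 probes were tested in the overlapping regions and 1 was called, with differences from -0.86 to 0.81 and a median of -0.04. The called probe, A_30_P01033133, differed by -0.83 ± 0.21 (limma adjusted p = 0.039). The Mir17hg probe, which covers the same 60 bases as one of the 12, differed by -0.76 ± 0.22 (limma adjusted p = 0.057). The brightest F probe of the region that the R probes share, A_30_P01028277, differed by 0.30 ± 0.64, and the strand difference to A_30_P01028224 was 1.29 ± 0.60 (limma unadjusted p = 0.065).

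**Figure D4:**
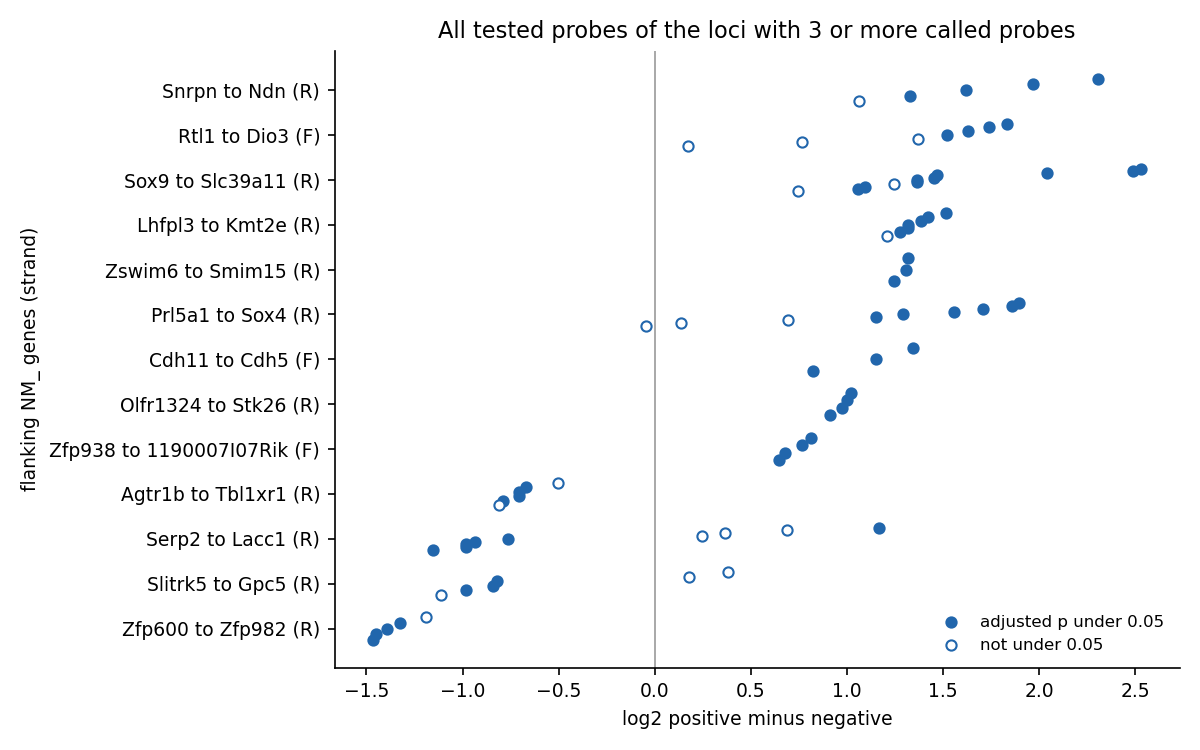
Log2 difference, positive minus negative (x axis), of every tested probe in the 13 loci with 3 or more called probes (y axis, named by flanking genes and strand); filled points have an adjusted p under 0.05. The Sox9 to Slc39a11 locus spans 0.74 to 2.53, and only the locus between Serp2 and Lacc1 has filled points on both sides of 0.

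The remaining lower probes were single. A_30_P01032062 in chr3:96206303-96206871 differed by -1.48 ± 0.26, A_30_P01018386 in chr17:41231055-41249764 beside Mmut by -1.08 ± 0.13, and A_30_P01022399 in chr5:13125413-13310754 by -1.01 ± 0.26 (limma adjusted p = 0.013, 0.005 and 0.038). The last lies between 2 semaphorin genes, axon guidance ligands, of which Sema3d was higher in positive cells by 5.653 ± 0.31 (limma adjusted p = 0.001) and Sema3a, the nearer, differed by -0.98 ± 0.29 (limma adjusted p = 0.059). Its call was lost under 12 of 18 alternatives. Both A_30_P01022399 and A_30_P01032062 were above background on only 2 positive arrays and entered the test through the negative group. The sizes of their differences are therefore uncertain. A_30_P01025202 in chr3:35236023-35241498, between Sox2 and Atp11b, stood at -5.08, -5.67 and -4.87 against -4.30, -3.90 and -4.12. It was above background on no positive array and too close to background in the negative ones for a fold to be given, and its call was lost under 10 of 18 alternatives.

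Of the 5 brightest probes taken 1 per region 1 was called, and of the 3 most distant none. The first 4 of the brightest were 3 probes of nested F regions between Olfr136 and Pgk2, of which a pair overlap, and A_30_P01020276 between Sp4 and Sp8. They differed by -0.11 to 0.29 and were not called. A_30_P01020276 stood at 7.73, 7.46 and 7.10 against 7.60, 7.53 and 7.50, with overlapping groups, while Sp8, a transcription factor gene of the limb ectodermal ridge 247 kb away, differed by -3.62 ± 0.49 (limma adjusted p = 0.006). The fifth, A_30_P01023804 in chr14:44292637-44293014, stood at 6.37, 6.44 and 6.11 against 6.91, 6.71 and 7.0, a difference of -0.57 ± 0.15 (limma adjusted p = 0.045) that was lost under 15 of 19 alternatives. The 3 tested probes farthest from any NM_ probe, at 1553, 1444 and 1035 kb, differed by 0.06 ± 0.18, 0.33 ± 0.48 and 0.46 ± 0.24, and none was called. The first 2 of these lie between Igsf11, which was higher in positive cells by 4.54 ± 0.36 (limma adjusted p = 0.001), and Lsamp. Another distal probe, A_30_P01024124 in chr16:39984031-40081556, lies in the promoter window of Lsamp on the opposite strand. It stood at 0.02, -4.29 and -3.02 against -4.06, -4.06 and -4.26, so a single positive sample was high, and the difference of 1.70 ± 1.03 did not pass (limma adjusted p = 0.291).

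The nearest placed NM_ gene was itself tested for 523 of the 718 distal probes. Across these probe and gene pairs the differences correlated at r = 0.10 and rho = 0.088, a description over pairs that share genes and arrays. The nearest gene was tested for 86 of the called distal probes and was called for 21 of them, 12 in the same direction and 9 in the opposite one. Counted once per called locus, 49 nearest genes were tested and 15 called, 7 in the same direction. Of all tested NM_ probes 25.2% were called. From a list of developmental regulators written from general knowledge, a member was the nearest gene of 165 distal probes. Of these, 26 were tested and 5 called, where 21.6% of all tested probes were called. The 5 lay in the loci beside Sox4 and Cdh11 alone. With a listed gene on either side, a choice made after values had been seen, 63 distal probes were tested, 21 called higher and 2 lower (36.5%, against 21.6% of all tested probes). Of the 21 higher probes 9 lay beside Sox9 and 6 beside Sox4, so this count rests on few loci, and the others lay beside Runx1, Cdh11 and Barx2. None of the last 3 genes was called. A single higher probe, A_30_P01030004 in chr9:13281056-13281599, differed by 1.51 ± 0.19 (limma adjusted p = 0.006) beside Maml2, a Notch coactivator gene that differed by 1.86 ± 0.22 (limma adjusted p = 0.004).

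Probes outside the lincRNA set also lay in the called loci. On the same strand as the lincRNA probes, 36 such probes could be tested in 15 of the loci. Their differences had the sign of the locus median in 32, and all 14 that were called had that sign. Of the 36, 6 share bases with a lincRNA probe. Among the other 30, 27 had the sign of the locus median and 10 were called, all with that sign. The loci were chosen for their calls, so these counts describe them and test nothing. On the opposite strand 7 could be tested and none was called. All were hybridised to the same 6 RNA samples.

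Both strands of a region were compared directly. Of the 198 distal regions with probes on both strands, 47 had a tested probe on each, 79 on a single strand and 72 on neither. For each array the level of the brightest R probe was subtracted from that of the brightest F probe, and limma tested whether this value differed between the groups, over the 377 lincRNA regions with both strands tested. None of the 47 distal regions passed, and none of the 377 did (0%), with the smallest adjusted p of a distal region at 0.369. At an unadjusted limma p under 0.05 there were 2 of 47, against 8.75% of the 377. The strand comparisons of the 47 regions are single differences with a wide error, and a p that misses the threshold does not show that the strands act alike. The smallest p belonged to chr4:88604248-88645948, where the F probe A_30_P01030734 differed by 0.40 ± 0.29 and the R probe by 2.01 ± 0.50, so that F minus R changed by -1.61 ± 0.46 (limma unadjusted p = 0.008). That R probe, A_30_P01033185, was above background on no negative array and entered the test through the positive group alone. The F probe entered through the negative group alone. The size of this strand difference is therefore uncertain, and its p gives no support of its own. Next came chr17:39960567-39992817, with 0.29 on F and -0.72 on R (strand difference 1.01 ± 0.38, limma unadjusted p = 0.029), and chr11:19778600-19815950, with -0.51 on F and 0.32 on R (-0.83 ± 0.36, limma unadjusted p = 0.052). In the region beside Sox9 the brightest R probe differed by 1.36 and the tested F probe by 0.74, and the strand difference was -0.63 ± 0.67.

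The F and R differences had the same sign in 34 of the 47 regions. Positive differences made up 67.3% of the tested distal probes, so a shared sign is common for unrelated probes too. Neither strand's brightest probe was called in 38 regions, F alone in 2, R alone in 7 and both in none. Of the tested distal probes 16.4% were called, and of all tested probes 21.6%. Counts over the 377 regions are not given here, so these describe the 47 regions only. Over all probes of the distal set, 77 region strands held a call. The opposite strand had probes on the array for 29 of these 77 and a tested probe for 13. A single region, chr18:79286360-79304510, had calls on both strands.

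**Figure D5:**
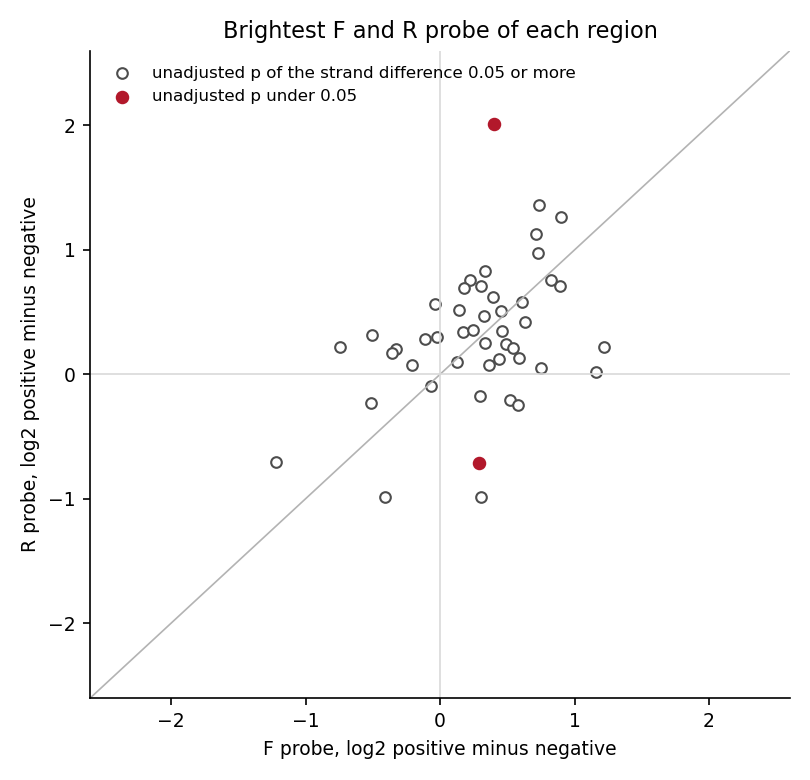
Log2 difference of the brightest R probe (y axis) against that of the brightest F probe (x axis), positive minus negative, in the 47 distal regions with both strands tested; filled points have an unadjusted p under 0.05 for the strand difference and the diagonal marks equal differences. The 2 filled points lie at 0.40 on F with 2.01 on R and at 0.29 on F with -0.72 on R. The R probe of the first point was above background on no negative array, so its place on the y axis is uncertain.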

How the data were processed

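RNA of 6 sorted samples (3 Sox9-EGFP positive, 3 negative) was hybridised to Agilent arrays. Per the file headers, the deposited intensity values come from Feature Extraction 10.7.3.1, which corrects background within each array. The authors' own log2 values, quantile normalized between arrays as judged from the deposited matrix, served as an alternative. Here the processed intensity was taken as log2 relative to the 75th percentile of each array's non-control spots. A probe was tested if well above background on all 3 arrays of a group. That left 26473 of 55681 probes, with 17 left out for outlier spots. limma 3.58.1 in R 4.3.3 was fitted to all of them with Benjamini-Hochberg adjustment at 0.05. The smallest exact p that 3 against 3 samples allow is 0.1, so the calls rest on the variance limma shares between probes. The labels do not say whether samples came from separate litters or sorts, so p-values measure the spread between these samples.

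Probe positions are those of mm9 in the files. Genes were named through the NM_ accession in a RefSeq table of GRCm38 (25880 of 26389 NM_ probes matched). For names, 113 of 26329 placed NM_ probes were not used, because they lay on another chromosome than the table gives or more than 2 Mb from the gene's other probes. They still counted in the distance rule, and were the nearest NM_ probe of 18 members. Members named are the 8 largest called differences in each direction without overlap, the 5 brightest, the 3 smallest strand p-values, those next to the distance limit, the 3 farthest, loci with 3 or more calls, and calls beside listed regulators. The other probes of a named region and its nearest NM_ gene are given too. Genes on the far side, probes outside the lincRNA set, A_30_P01030004 and probes matching promoters or hairpins were added after values were seen. The members and lists were chosen with earlier results of these data known.

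The fit was tested on simulated data for 3 against 3 arrays of 26473 probes, and recovered 0%, 28%, 80% and 88% of probes changed 1.5-fold, 2-fold, 4-fold and 8-fold. The simulation changed far fewer probes than the 21.6% called in the data, which makes the adjusted threshold stricter, and it had no slide effect. Its shares are therefore not those of the fit to these data. Alternatives covered scaling, filter, moderation, array weights, slide and replicate blocks, thresholds, the distance limit and leaving out each array. Deviations of same-numbered samples correlated at -0.27, -0.46 and 0.28. The labels do not say whether the replicate numbers pair the samples. These correlations cannot decide it, because the deviations are centred within 3 arrays and the slides cross the numbers. Arrays of the same slide correlated at 0.56, 0.41 and 0.24. The number of arrays limits the precision.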

Additional observations from a re-analysis of the deposited data

How the results depend on the processing

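Against 84 higher and 34 lower distal lincRNA probes, array weights gave 137 and 70, no filter on background 41 and 4 (of 3137 tested), normexp with quantile normalization 52 higher, quantile normalization 49 higher, the authors' log2 values 47 higher, and the 75th percentile over probes above background on all arrays 16 lower. The called share moved over the whole array too. With array weights it was 28.8% of distal and 36.3% of all tested probes. With no filter it was 1.43% and 2.43%, after quantile normalization 11.4% and 14.3%, and with the authors' values 10.2% and 16.2%. With the replicate number as a block the shares were 5.01% and 5.18%. With 1 array left out they were 6.96% to 20.6% and 7.66% to 24.4%. The replicate number as a block gave 30 higher and 6 lower, and no strand call. The median of 0.24 stays the same there by construction, since each block holds 1 array of each group. Whether the numbers pair the samples is not known. A threshold of 0.01 left 28 and 10, and a 2-fold limit 12 lower. With a distance limit of 50 kb the counts were 158 and 66, with 200 kb 33 and 15, and with 1 probe per region and strand 47 and 18. Leaving out 1 array gave 35 to 106 higher and 13 to 42 lower calls. It gave 35 and 15 without negative replicate 3, 41 and 13 without negative replicate 1, 47 and 21 without negative replicate 2, 36 and 19 without positive replicate 3, and 22 lower without positive replicate 2. The median difference was 0.51 with the 75th percentile over probes above background on all arrays, 0.11 with array weights, 0.54 with no filter, 0.049 with normexp and quantile normalization, 0.065 with quantile normalization, 0.042 with the authors' log2 values, and 0.066 to 0.35 with 1 array left out. No strand difference passed in the distal regions under any alternative run. Of 1337 recomputed values of the 71 called probes named here, 982 stayed called and 355 did not. None changed sign, but under the blocks, filters, moderation and thresholds the difference is the same by construction. Most of the set is near background: 1760 of 3142 probes gave no signal above it on any array, and their differences are not measured here.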
